A study of Homo sapiens with 4 samples.

Results

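The genes described here are 36 genes of the unfolded protein response and of protein folding in the endoplasmic reticulum (ER), chosen by name from a written list of ER stress sensors, chaperones and ER-associated degradation factors, out of 61806 genes in the table. All 36 symbols were found, each in 1 entry. RNA was sequenced from JJ012, a human chondrosarcoma cell line, and from 143B, a human osteosarcoma cell line, both kept detached from a surface in suspension. Each line gave 1 untreated control library and 1 library after 1 mM melatonin, the pineal hormone, for 72 h, so that there were 4 libraries and 1 per condition. The study asks how melatonin acts on detached bone cancer cells, and the labels name no vehicle for the controls. With 1 library per condition, the variation from culture to culture within a line is unknown, and a difference within a line carries no p-value.

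Secretory and membrane proteins fold in the ER with the help of chaperones and of enzymes that form disulfide bonds, and proteins that fail to fold are sent back to the cytosol and degraded. When unfolded proteins accumulate, 3 sensors in the ER membrane respond, namely IRE1 (gene ERN1), which splices the XBP1 mRNA, ATF6, which is cut by the site-1 and site-2 proteases and moves to the nucleus, and PERK, which slows translation and raises ATF4 and CHOP. XBP1 and ATF6 bind short promoter elements of chaperone genes and raise their transcription, and bone and cartilage cells, which secrete much matrix, are known to depend on this response.

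The best known of these promoter elements is the ER stress response element (ERSE), which reads CCAAT, then 9 bases of any kind, then CCACG. It was searched on both strands in RefSeq promoters (GRCh38.p14, from 250 bases before to 50 bases after the gene start), which were found for 33 of the 36 genes. DERL1, DERL3 and PDIA3 had no entry. ERSE letters were present in 8 of the 33 genes, against 0.0916% of the 27305 genes with a promoter. The elements are shown because the factors of this response are known to bind them, and 22 of the 33 genes held neither this element nor its shorter form. Each line runs 5′ to 3′ in the direction in which the element reads, and capitals mark the fixed letters.
HSPA5, chr9:125241381-125241419, strand of the gene: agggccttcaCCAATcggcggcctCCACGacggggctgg
XBP1, chr22:28800593-28800631, strand of the gene: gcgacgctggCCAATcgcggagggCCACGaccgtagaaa
PDIA6, chr2:10812843-10812881, strand of the gene: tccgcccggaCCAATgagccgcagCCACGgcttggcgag
CANX, chr5:179698768-179698806, strand of the gene: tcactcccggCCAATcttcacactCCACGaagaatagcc
HSP90B1, chr12:103930206-103930244, strand of the gene: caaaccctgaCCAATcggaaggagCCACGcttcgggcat
HSP90B1, chr12:103930311-103930349, opposite strand: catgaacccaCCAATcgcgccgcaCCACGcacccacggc
CALR, chr19:12938374-12938412, opposite strand: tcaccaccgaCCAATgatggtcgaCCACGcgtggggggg
CRELD2, chr22:49918544-49918582, opposite strand: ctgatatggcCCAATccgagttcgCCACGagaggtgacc
ERO1B, chr1:236282173-236282208, opposite strand: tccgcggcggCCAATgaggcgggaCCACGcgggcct

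A shorter form, ERSE-II, reads ATTGG, then 1 base of any kind, then CCACG. It was present in 3 of the 33 genes, against 0.0696% of all genes with a promoter, and HYOU1 held 2 copies. The further element TGACGTGG, the core of the unfolded protein response element, was found in HYOU1, where it overlapped 1 of the ERSE-II copies, and in 0.927% of all genes. The CCACG letters alone were in 23 of the 33 genes (42.1% of all genes), and CCAAT alone in 25 (39.7% of all genes). A match is a description of the letters and does not show that a factor binds there.
HERPUD1, chr16:56932015-56932045, strand of the gene: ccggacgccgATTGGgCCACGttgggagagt
HYOU1, chr11:119057264-119057294, opposite strand: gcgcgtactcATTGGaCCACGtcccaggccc
HYOU1, chr11:119057370-119057400, opposite strand: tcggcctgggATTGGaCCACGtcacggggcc
SDF2L1, chr22:21642104-21642134, opposite strand: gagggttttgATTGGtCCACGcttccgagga

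The libraries held between 15889564 and 19218343 counts. Together the 36 genes made up 1.72% of the JJ012 control library and 1.36% of the JJ012 melatonin library, against 1.23% and 1.28% in 143B. Mitochondrially encoded genes made up 6.78% of untreated and 4.35% of treated JJ012 and 1.63% and 2.46% of 143B, thus moving in opposite directions with melatonin, and their part in the differences was not tested. Levels are given as FPKM, which scale each count by exonic length and library total, so that they can be compared between genes. The cartilage markers COL2A1 and ACAN were at or below 0.11 FPKM in all 4 libraries, and 1 of 8 chondrocyte markers, SOX9, reached 1 FPKM in each library. Of 7 osteoblast markers, 2 or 3 reached 1 FPKM. In JJ012 COL1A1 went from 10.92 to 0.77 FPKM, SPP1 from 79.39 to 64.50 FPKM and RUNX2 from 3.02 to 2.59 FPKM. In 143B COL1A1 had 0.49 and 0.33 FPKM, SPP1 0.40 and 0.53 FPKM and RUNX2 4.28 and 2.75 FPKM. BGLAP had 0.81 and 0.26 FPKM in JJ012 and 1.44 and 1.21 FPKM in 143B. Of 7 markers of blood, epithelial and endothelial cells, 1 or 2 reached 1 FPKM, and their summed level was 12.45 FPKM in untreated and 4.67 FPKM in treated JJ012, and 3.93 and 2.91 FPKM in 143B. Among them was CD3E, with 9.73 and 3.28 FPKM in JJ012, while the blood cell markers PTPRC and CD14 were at or below 0.53 FPKM in all 4 libraries. In such bulk libraries fewer cells of a kind and less RNA per cell cannot be told apart.

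Differences are log2 fold changes of FPKM + 1, taken where a gene reached 1 FPKM in 1 or both of the 2 libraries compared. The added 1 FPKM understates the change of low genes. A gene is said to have risen or fallen where the absolute value reached 0.58. For single genes the ratio of counts scaled to the library total (CPM) is given with its exact (Clopper-Pearson) 95% interval on the log2 scale. These intervals cover counting error only, not the variation between cultures. They can be too narrow even for counting error, since PCR copies of 1 molecule are counted as separate reads. Of the 36 genes, 35 passed the filter in every comparison. DERL3, a paralog of DERL1 and DERL2 in retrotranslocation, had 2, 0, 4 and 5 counts in the JJ012 control, JJ012 with melatonin, the 143B control and 143B with melatonin. By GENCODE 29, 77.0% of the exonic bases of DERL3 lie over SMARCB1 on the other strand. ERN1 passed in JJ012 through its melatonin library alone.

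**Figure D1:**
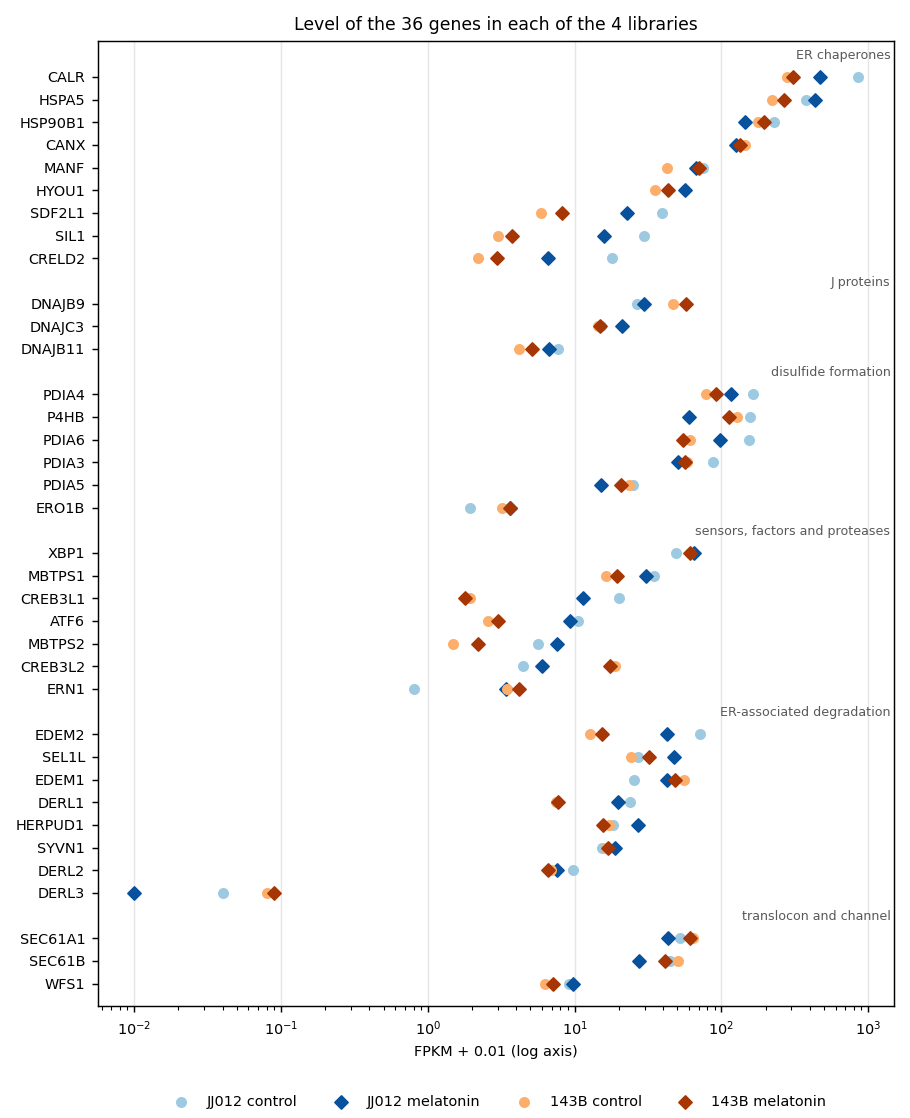
Level of each of the 36 genes in the 4 libraries, in FPKM + 0.01 on a log axis, by role, with circles for controls and diamonds for melatonin, and light or dark blue for JJ012 and orange or red for 143B. CALR, HSPA5 and HSP90B1 lead in every library, DERL3 lies near 0, and CRELD2, SIL1 and SDF2L1 sit lower in both 143B libraries than in both JJ012 libraries.

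In JJ012, 4 of the 35 tested genes rose after melatonin and 12 fell. Of all 15794 genes tested in JJ012, 19.6% rose and 18.6% fell. The falls included the most abundant chaperone, CALR, and 4 of the 6 genes of disulfide bond formation. The rises were those of ERN1, SEL1L, EDEM1 and ERO1B. The median log2 fold change of the 35 genes was -0.18, against 0.0084 over all genes tested, so that the median of the list lay 0.19 below that of all genes. Rescaling to TPM moved the median of these 15794 genes by 0.26 and that of the 35 genes to 0.08, and 9 of the 35 then rose and 4 fell. A filter of 1 TPM kept 23153 genes, of which 33% rose and 19.9% fell by TPM, with a median of 0.21. Relative to that median, a setting chosen after seeing the data, 5 of the 35 rose and 12 fell.

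In 143B, 1 of the 35 tested genes rose after melatonin, namely MANF, and 0 fell. Of all 14135 genes tested in 143B, 6.09% rose and 6.65% fell. The median of the 35 genes was 0.14, against 0.03 over all genes tested. Differences were narrower than in JJ012, with a median absolute log2 fold change of 0.18 over the 35 genes in 143B and of 0.47 in JJ012. The same medians over all genes tested were 0.21 in 143B and 0.45 in JJ012.

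The difference averaged over both lines was also tested, with the line as a block, by edgeR's quasi-likelihood test on the counts of all 4 libraries, a fit chosen after seeing the data that leaves 1 residual degree of freedom. A response that differs between the lines counts as spread in this fit, but the spread is pooled over genes. An unequal response of 1 gene therefore hardly enters its own p-value. At an adjusted p of 0.05, 0 of the 35 genes were higher and 0 lower, against 0.0663% higher and 0.387% lower of the 18107 genes tested. ERN1 was the 1 gene of the 35 (2.86%) with an unadjusted p under 0.05 by edgeR, against 5.71% of the 18107 genes. Its average log2 difference was 1.16, with a p of 0.00423 and an adjusted p of 0.322 by edgeR. ERN1 was higher with melatonin in both lines, but unequally, with log2 ratios of CPM of 2.10 in JJ012 and 0.28 in 143B.

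**Figure D2:**
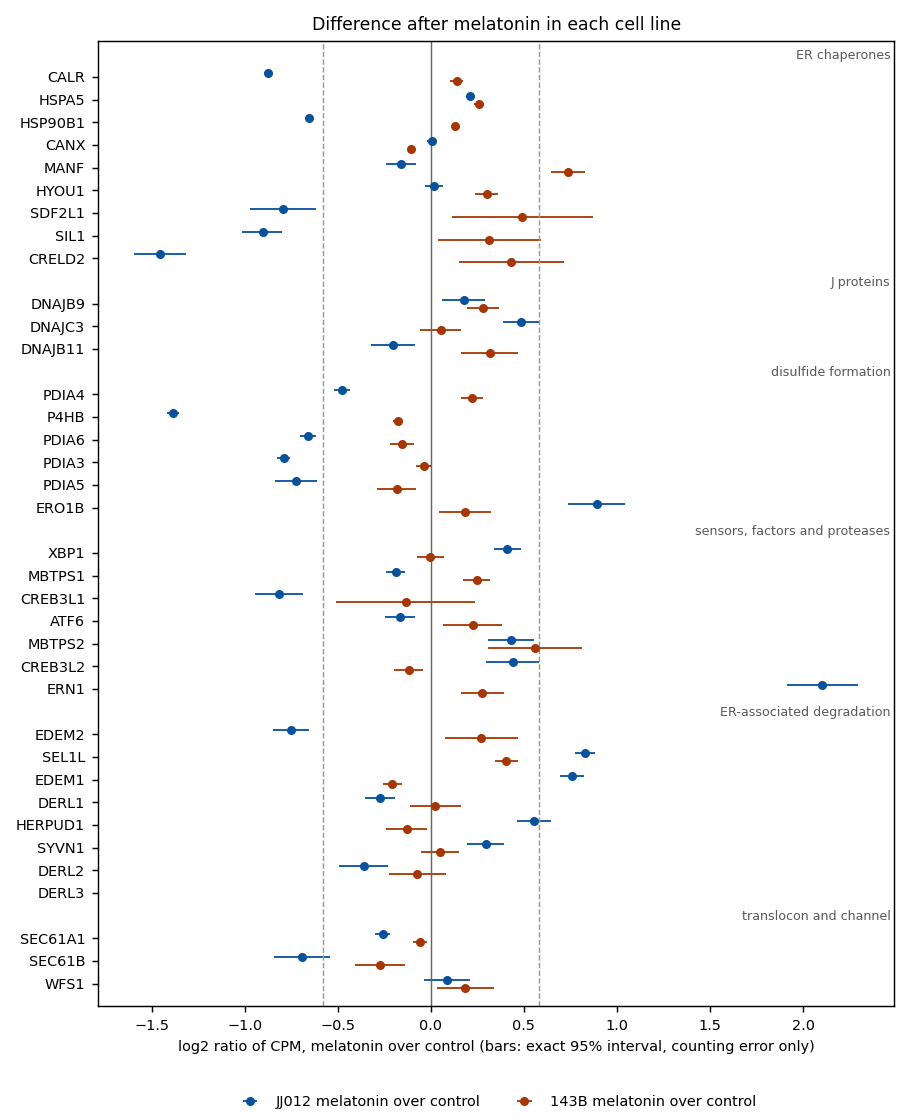
The log2 ratio of CPM, melatonin over control, for each gene by role, in JJ012 (blue) and 143B (red), with bars for the exact 95% interval of counting error and dashed lines at 0.58 on either side of 0. ERN1 stands at 2.10 in JJ012, CRELD2 and P4HB lie lowest there, and in 143B MANF lies at 0.74, past the dashed line, with MBTPS2 next at 0.56 and an interval that crosses it. DERL3 is not drawn.

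Among the 9 ER chaperones and their partners, JJ012 had 5 falls and 0 rises and a median log2 fold change of -0.65 (3 falls and -0.38 by TPM), while 143B had 1 rise and 0 falls and a median of 0.26. Summed over the 9 genes, the level was 10378 CPM in untreated and 8444 CPM in treated JJ012, and 6896 and 7462 CPM in 143B. CALR encodes calreticulin, the soluble lectin chaperone that binds glycoproteins and calcium. It had 854.79 FPKM in untreated and 466.12 FPKM in treated JJ012, against 279.99 and 308.43 FPKM in 143B. It was the most abundant of the 36 genes in each library, and the JJ012 control was the highest of its 4 values. In JJ012 it was 1.83-fold lower by CPM, with a log2 ratio of -0.87 (interval -0.90 to -0.85). Its membrane-bound relative calnexin (CANX) had 124.87 and 125.18 FPKM in JJ012 and 144.01 and 133.65 FPKM in 143B.

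HSPA5 encodes BiP, the Hsp70 chaperone that binds unfolded chains and holds the sensors inactive, and it is the standard marker of ER stress. It had 378.00 FPKM in the JJ012 control and 437.45 FPKM after melatonin, with a log2 fold change of 0.21. In 143B it had 221.99 and 265.59 FPKM, with a log2 fold change of 0.26. The melatonin value was above the control value in both lines, and both differences were under the threshold. HSP90B1, or GRP94, the Hsp90 of the ER, fell in JJ012, from 229.14 to 145.65 FPKM (-0.65 on the log2 scale), and had 177.22 and 194.00 FPKM in 143B. Its fall in JJ012 was not called by TPM or with TMM factors. HYOU1, the ER nucleotide exchange factor of BiP, had 56.26 and 56.88 FPKM in JJ012 and 35.04 and 43.15 FPKM in 143B.

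SIL1, another nucleotide exchange factor of BiP, had 29.74 FPKM in the JJ012 control and 15.89 FPKM after melatonin. It had 3.01 and 3.74 FPKM in 143B, so that both 143B values were lower than both JJ012 values. CRELD2, a secreted ER stress protein with disulfide isomerase activity, fell in JJ012 from 17.96 to 6.56 FPKM (1783 and 547 counts), which was 2.74-fold lower by CPM, with a log2 ratio of -1.45 (interval -1.59 to -1.31). In 143B it had 2.18 and 2.94 FPKM (179 and 261 counts). SDF2L1, a partner of ER J proteins, fell from 39.41 to 22.75 FPKM in JJ012 and had 5.88 and 8.25 FPKM in 143B, from 99 and 150 counts. The fall of SDF2L1 was not called by TPM or with the trend over gene length removed.

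MANF, a secreted factor of the stressed ER that also binds BiP, had 42.37 FPKM in the 143B control and 70.57 FPKM with melatonin (1440 and 2591 counts). It had 74.51 and 66.64 FPKM in JJ012, so the 143B control was the low value and the other 3 lay close together. The rise in 143B was 1.67-fold by CPM, with a log2 ratio of 0.74 (interval 0.64 to 0.83) and a log2 fold change of 0.72. In JJ012 its log2 fold change was -0.16.

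The 3 J proteins, which deliver clients to BiP and stimulate its ATPase, did not reach the threshold in either line after melatonin, though by TPM DNAJC3 rose in JJ012, at 0.75. DNAJB9 (ERdj4), which also represses IRE1, had 26.43 and 29.85 FPKM in JJ012 and 46.99 and 57.11 FPKM in 143B. DNAJC3 (p58IPK), an inhibitor of PERK, had 15.15 and 21.17 FPKM in JJ012 (0.46 on the log2 scale) and 14.35 and 14.89 FPKM in 143B. DNAJB11 (ERdj3) was the lowest of the 3, between 4.14 and 7.70 FPKM.

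Of the 6 genes of disulfide bond formation, JJ012 had 4 falls and 1 rise and a median log2 fold change of -0.67 (1 fall, 1 rise and -0.41 by TPM), and none reached the threshold in 143B, where the median was -0.09. Their summed level was 4089 CPM in untreated and 2170 CPM in treated JJ012, and 2769 and 2597 CPM in 143B. P4HB encodes protein disulfide isomerase itself, which is also the beta subunit of the collagen prolyl 4-hydroxylases. It had 157.84 FPKM in the JJ012 control, 60.39 FPKM after melatonin, 128.41 FPKM in the 143B control and 113.52 FPKM in 143B with melatonin. JJ012 with melatonin was the low value of the 4, at 10853 counts against 33768 in its control. The fall was 2.61-fold by CPM, with a log2 ratio of -1.39 (interval -1.42 to -1.35). On the FPKM + 1 scale it was the largest absolute log2 fold change among the 35 genes, at -1.37. By CPM the absolute log2 ratios of ERN1 (2.10) and CRELD2 (-1.45) in JJ012 were larger.

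PDIA3 (ERp57), which works with calnexin and calreticulin on glycoproteins, fell from 87.25 to 50.42 FPKM in JJ012 and had 58.09 and 56.51 FPKM in 143B. Its processed pseudogene PDIA3P1 had 980 and 466 counts in JJ012, and how reads matching both were counted is not given in the sources used here. PDIA6, which can reduce the disulfides of activated IRE1, fell from 155.06 to 98.00 FPKM in JJ012, against 61.11 and 54.96 FPKM in 143B. By GENCODE 29, 25.2% of its exonic bases overlap ATP6V1C2 on the other strand, which had at most 94 counts in a library. PDIA5 fell from 25.13 to 15.20 FPKM in JJ012, and 12.2% of its exonic bases overlap SEC22A on the same strand, which had between 278 and 374 counts. These 3 falls were not called by TPM. PDIA4 (ERp72) had 162.95 and 117.03 FPKM in JJ012 (-0.47 on the log2 scale) and 79.08 and 92.12 FPKM in 143B.

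ERO1B, an oxidase that passes disulfides on to protein disulfide isomerase, moved against the other genes of this role in JJ012. It rose from 1.94 to 3.61 FPKM (574 and 894 counts), which was 1.85-fold higher by CPM, with a log2 ratio of 0.89 (interval 0.74 to 1.04). In 143B it had 3.18 and 3.61 FPKM. The rise was not called with the trend over gene length removed or with a filter of 5 FPKM. Its paralog ERO1A, which is in a further list, was more abundant and fell in JJ012, from 205.85 to 112.63 FPKM (-0.86 on the log2 scale). In 143B ERO1A had 220.18 and 220.53 FPKM.

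Among the 7 sensors, transcription factors and activating proteases, JJ012 had 1 rise and 1 fall and a median log2 fold change of 0.37 (4 rises, 0 falls and 0.68 by TPM), and none reached the threshold in 143B, where the median was 0.16. ERN1 encodes IRE1α, the kinase and RNase that senses unfolded proteins. It had 291 counts in untreated and 1050 in treated JJ012, against 1054 and 1379 in the 143B libraries. As FPKM these were 0.79, 3.40, 3.46 and 4.19, so that the JJ012 control was the low value and the other 3 lay close together. In JJ012 the rise was 4.30-fold by CPM, with a log2 ratio of 2.10 (interval 1.91 to 2.30) and a log2 fold change of 1.30 on the FPKM + 1 scale. The 143B ratio of 1.21-fold had an interval of 0.16 to 0.39 on the log2 scale.

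XBP1, the transcription factor that IRE1 activates by splicing, had 48.82 and 64.91 FPKM in JJ012 and 61.13 and 60.95 FPKM in 143B. Its log2 fold change in JJ012 was 0.40, under the threshold, and 0.68 by TPM, past it. Counts per gene do not separate spliced from unspliced XBP1 mRNA, so the activity of IRE1 was not measured. ATF6 had 10.46 and 9.32 FPKM in JJ012 and 2.56 and 2.99 FPKM in 143B, so that both 143B values were lower than both JJ012 values. MBTPS1, the site-1 protease that cuts ATF6, had between 30.41 and 34.69 FPKM in JJ012 and 16.47 and 19.53 FPKM in 143B. MBTPS2, the site-2 protease, had 5.65 and 7.62 FPKM in JJ012 and 1.48 and 2.18 FPKM in 143B, and it shares 12.2% of its exonic bases with YY2 on the same strand, which had at most 79 counts in a library.

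CREB3L1 (OASIS) and CREB3L2 (BBF2H7) are membrane-bound factors related to ATF6, the former known for collagen production in osteoblasts and the latter for secretion in cartilage. CREB3L1 had 19.93 FPKM in untreated and 11.32 FPKM in treated JJ012 (1541 and 735 counts), and its log2 fold change was -0.76. It had 1.94 and 1.77 FPKM in 143B. CREB3L2 had 4.45 and 6.03 FPKM in JJ012 and 18.97 and 17.47 FPKM in 143B. CREB3L1 was therefore the higher of the pair in JJ012 and CREB3L2 the higher in 143B, with and without melatonin. The fall of CREB3L1 was not called by TPM.

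Of the 8 genes of ER-associated degradation, 7 were tested, of which 2 rose and 1 fell in JJ012 and none reached the threshold in 143B. By TPM, JJ012 had 3 rises and 0 falls. Their median log2 fold change was 0.28 in JJ012 (0.56 by TPM) and 0.02 in 143B, the latter of which was below 0 by TPM, by median-of-ratios size factors and when centred on the median gene. SEL1L, the scaffold of the HRD1 ubiquitin ligase complex, rose from 26.96 to 47.84 FPKM in JJ012 (4949 and 7378 counts), which was 1.77-fold by CPM, with a log2 ratio of 0.83 (interval 0.78 to 0.88). In 143B it had 24.14 and 31.96 FPKM, with a log2 fold change of 0.39. EDEM1, which takes misfolded glycoproteins out of the calnexin cycle, rose from 25.23 to 42.71 FPKM in JJ012 and had 55.69 and 48.26 FPKM in 143B. Its relative EDEM2, which removes the first mannose from misfolded glycoproteins, fell from 71.45 to 42.45 FPKM in JJ012 and had 12.76 and 15.40 FPKM in 143B. With the trend over gene length removed, the rise of SEL1L and the fall of EDEM2 were not called, and by TPM the fall of EDEM2 was not called either.

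HERPUD1, which organizes the HRD1 complex, had 18.38 and 26.99 FPKM in JJ012 (0.53 on the log2 scale) and 17.13 and 15.65 FPKM in 143B. SYVN1, the HRD1 ligase itself, had between 15.34 and 18.80 FPKM in all 4 libraries. DERL1 had 23.92 and 19.79 FPKM in JJ012 and 7.51 and 7.64 FPKM in 143B, and DERL2 had between 6.61 and 9.77 FPKM in all 4. SYVN1 shares 7.24% of its exonic bases with FAU on the same strand, which had between 1143 and 2600 counts.

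Of the last 3 genes, SEC61B, the beta subunit of the translocon through which new chains enter the ER, fell from 44.37 to 27.46 FPKM in JJ012 and had 50.29 and 41.59 FPKM in 143B. The fall was not called by TPM or with the trend over gene length removed. SEC61A1, the pore subunit, had 52.06 and 43.52 FPKM in JJ012 and 64.10 and 61.51 FPKM in 143B. WFS1 (wolframin), an ER membrane protein known for calcium homeostasis, had between 6.24 and 9.76 FPKM. Their median in JJ012 was -0.25, which was 0.017 by TPM.

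The difference after melatonin moved with gene length in JJ012. Across genes, which are not independent replicates, the Spearman correlation of the log2 fold change with exonic length was 0.33 over the 35 genes and 0.24 over all 15794 genes tested in JJ012, against -0.09 and -0.0084 in 143B. The 4 genes that rose in JJ012 had exonic lengths of 6737 to 19153 bases. SDF2L1, SEC61B and EDEM2, which fell, had 1059, 1209 and 1884 bases, while P4HB, PDIA3 and HSP90B1 fell with 11132, 11774 and 13092 bases. With the running median over length removed, 2 of the 35 genes, ERN1 and EDEM1, rose and 10 fell, and the median of the 35 genes was -0.34. Of all 15794 genes tested in JJ012, 18.1% then rose and 16.4% fell. The part of length in these differences was not tested.

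**Figure D3:**
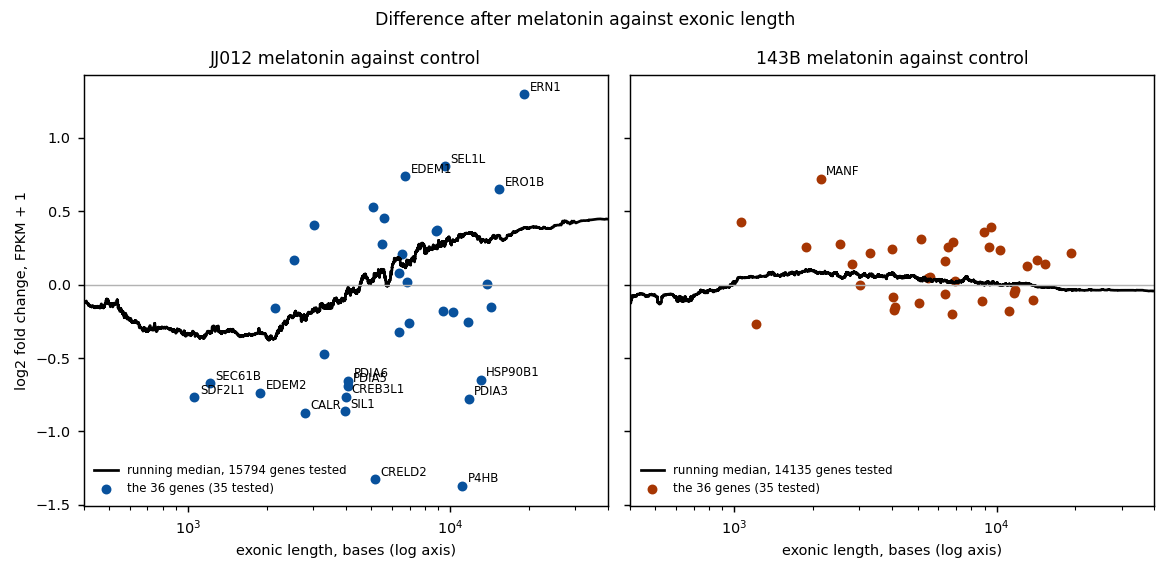
Log2 fold change of FPKM + 1 against exonic length (log axis) in JJ012 (left) and 143B (right), with the running median over all genes tested as a black line. In JJ012 the line climbs with length, P4HB and CRELD2 lie far below it and ERN1 far above it, and in 143B the line is close to flat and MANF is the 1 gene past 0.58.

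In both lines together, 10 of the 35 genes had a log2 fold change above 0 in JJ012 and in 143B, 8 below 0 in both, 12 below 0 in JJ012 and above 0 in 143B, and 5 the reverse. By TPM these counts were 12, 7, 7 and 9 in the same order, with MANF, DNAJB11, ATF6, MBTPS1, DERL1 and SEC61A1 above 0 in JJ012. Each line had its own control. Over the 35 genes the Pearson correlation of the log2 fold changes of the lines was 0.09 and the Spearman correlation 0.09, given as a description of libraries that share these genes and their lengths. For 26 of the 35 genes the absolute value was larger in JJ012, as was the median absolute value over all genes tested (0.45, against 0.21 in 143B). The same counts and correlations over all genes are not given here, so they are not shown to be particular to the list. The 11 genes with ERSE or ERSE-II letters included 1 that rose and 5 that fell in JJ012, with a median of 0.0035 and values from -1.33 (CRELD2) to 0.65 (ERO1B). The 22 genes with a promoter and neither element included 3 that rose and 6 that fell, with a median of -0.17. In 143B these medians were 0.14 and 0.16. Genes with these elements therefore moved in both directions in JJ012.

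Compared with the JJ012 control, the 143B control had 4 of the 35 genes higher and 16 lower past the threshold. Of all 16929 genes tested between the controls, 27.4% were higher and 41.3% lower in 143B. The median of the 35 genes was -0.49, against -0.29 over all genes tested. Relative to that median gene 7 of the 35 were higher and 12 lower, against 34.5% and 32.6% of all genes tested. This comparison uses the same JJ012 control library as that of melatonin in JJ012. Of the 9 chaperones 7 were lower in 143B and 0 higher, with a median of -0.80. Of these 9, 4 were lower when centred on the median gene, with TMM factors, with size factors or by TPM, where the median was -0.43 and 1 was higher. SIL1 was 9.89-fold lower by CPM (2273 and 190 counts), CREB3L1 10.3-fold lower (1541 and 124 counts) and CRELD2 8.24-fold lower (1783 and 179 counts).

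SDF2L1 was 6.70-fold lower in the 143B control, EDEM2 5.60-fold, ATF6 4.09-fold and CALR 3.05-fold, all by CPM. DERL1, MBTPS2, PDIA6, PDIA4, MBTPS1, MANF, HSPA5, DNAJB11 and HYOU1 were also lower, with log2 fold changes from -1.55 (DERL1) to -0.67 (HYOU1). The 4 genes higher in the 143B control were CREB3L2 (4.45 and 18.97 FPKM, 4.26-fold by CPM), ERN1 (4.38-fold by CPM), EDEM1 (2.21-fold) and DNAJB9 (1.78-fold). ATF6 and ERN1, both sensors, thus lay on opposite sides. HSPA5, MANF and HYOU1 lost this call when centred, by TPM, with TMM factors, with size factors and at a threshold of 1, DNAJB11 in 4 of these 5 settings, and PDIA4 with the trend over gene length removed. The difference of MANF was 0.07 with the trend over gene length removed.

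**Figure D4:**
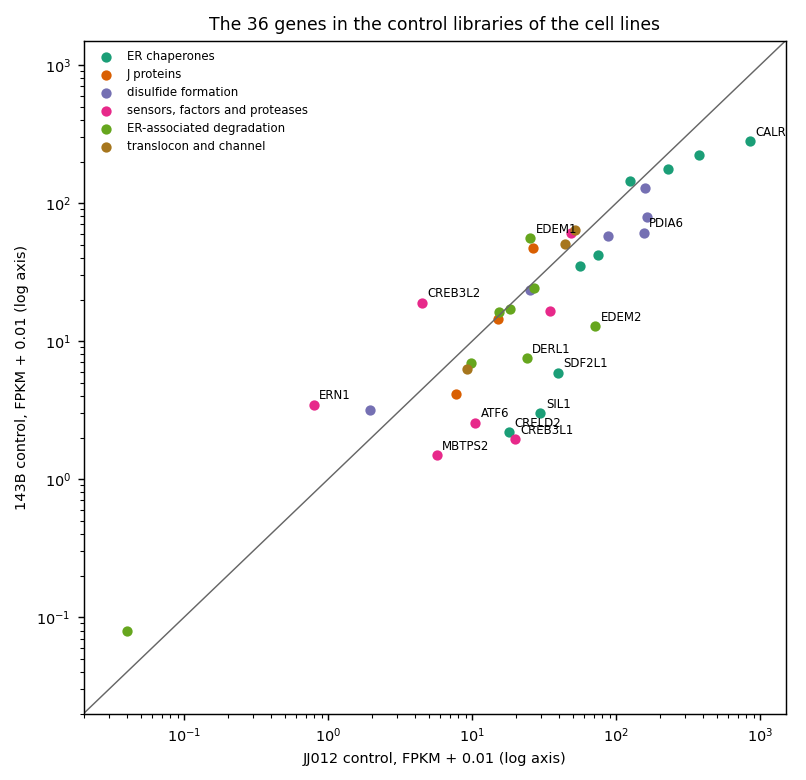
Level of the 36 genes in the 143B control against the JJ012 control, both as FPKM + 0.01 on log axes, coloured by role, with the line of equal levels. CREB3L2, ERN1 and EDEM1 lie above the line, CREB3L1, SIL1, CRELD2 and SDF2L1 farthest below it, and the single point near 0.1 FPKM is DERL3.

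A further 7 lists of genes that work beside these were described in the same way. In the list of the PERK arm, JJ012 had 7 rises and 0 falls among 10 tested genes and a median log2 fold change of 0.62 (0.98 by TPM), while 1 rose and 2 fell of 9 in 143B, with a median of -0.23. The rise in 143B was that of CHAC1, from 0.46 to 1.22 FPKM (15 and 43 counts). CHAC1 passed the filter in 143B through its melatonin library alone. Its rise was not called when centred or with the trend over gene length removed. DDIT3 (CHOP), the pro-apoptotic factor of this arm, rose from 44.23 to 162.32 FPKM in JJ012, 3.67-fold by CPM, and fell from 17.53 to 10.88 FPKM in 143B. TRIB3, a target of CHOP, rose from 12.43 to 28.59 FPKM in JJ012 and had 15.64 and 13.58 FPKM in 143B. PPP1R15A (GADD34), which reverses the translation block, rose from 28.20 to 44.58 FPKM in JJ012, and PPP1R15B from 8.84 to 15.63 FPKM. EIF2AK3 (PERK itself) and EIF2S1 passed the threshold narrowly, at 0.589 and 0.581, and ATF4 missed it narrowly, at 0.577, with 135.49 and 202.61 FPKM. Counts per gene do not measure the activity of PERK, and the cause of the rises in this list was not tested.

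In the list of collagen folding, JJ012 had 12 falls and 1 rise among 16 tested genes and a median of -0.94 (-0.69 by TPM), and 143B had 1 rise and 0 falls, with a median of -0.03. The rise in 143B, that of P3H4 at 0.59, was not called when centred or with the trend over gene length removed. P4HA1, the catalytic partner of P4HB in collagen prolyl hydroxylation, fell from 382.67 to 143.15 FPKM in JJ012, and PLOD2, a lysyl hydroxylase, from 143.29 to 45.78 FPKM. P3H3 and P3H2, of the prolyl 3-hydroxylase family, fell by 1.57 and 1.40 on the log2 scale. In the list of other oxidoreductases and ER cochaperones, JJ012 had 12 falls and 0 rises among 22 tested genes and a median of -0.63 (-0.38 by TPM), while 143B had 2 rises and 1 fall among 23. PRDX4, the peroxiredoxin of the ER, fell from 129.14 to 33.79 FPKM in JJ012 and had 13.30 and 12.12 FPKM in 143B. GPX8, an ER peroxidase, fell by 1.20 in JJ012, and CNPY4 and CNPY2 fell by 1.38 and 1.14.

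Of the oligosaccharyltransferase and glycan trimming list, JJ012 showed 6 falls and 0 rises among 16 genes, at a median of -0.53 (1 fall, 1 rise and -0.26 by TPM), and 0 reached the threshold in 143B. OST4, a small subunit of the oligosaccharyltransferase, fell from 173.36 to 67.83 FPKM, and MAN1B1, PRKCSH and STT3A fell by 0.75, 0.72 and 0.71. Of the list of the translocon, signal peptidase and signal recognition particle, 7 of 22 genes fell and 1, SEC62, rose in JJ012, with a median of -0.07, which was 0.20 by TPM and 0.0096 with TMM factors. SEC61G, the third subunit of the SEC61 channel, fell from 92.80 to 43.31 FPKM there, and SRP14, SPCS1 and SSR2 fell by 0.95, 0.84 and 0.80. None of the 22 reached the threshold in 143B.

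The list of other ER-associated degradation factors had 2 genes that rose and 2 that fell among 20 in JJ012, with a median of 0.14 (6 rises, 0 falls and 0.42 by TPM), and none in 143B. EDEM3, the third EDEM gene, rose from 4.75 to 9.82 FPKM and UBE2G2, an E2 enzyme, from 25.92 to 41.94 FPKM, while the lectin OS9 and the ligase RNF5 fell by 0.60 and 0.70. Of the COPII coat and KDEL receptor list, 3 of 16 rose and 2 fell in JJ012, with a median of 0.08, which was -0.11 with the trend over gene length removed. The rises were those of SEC24B, SEC24C and SEC24A, cargo adaptors of the COPII coat, with log2 fold changes of 1.19, 0.74 and 0.60. KDELR1, which returns ER chaperones from the Golgi, fell from 120.72 to 62.58 FPKM. In 143B, 1 of these 16 genes fell, namely SEC24A, by 0.63.

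**Figure D5:**
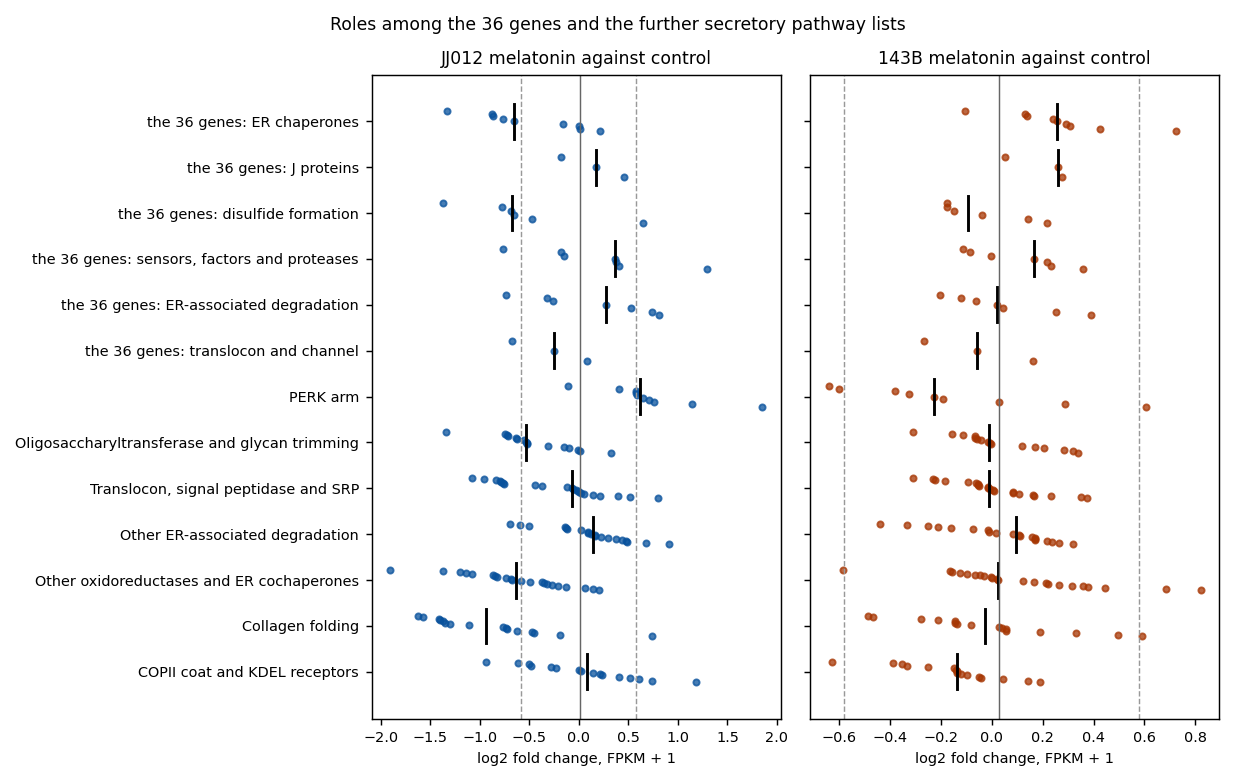
Log2 fold change of FPKM + 1 of each tested gene in the 6 roles of the 36 genes and in the 7 further lists, in JJ012 (left) and 143B (right, on a narrower axis). A black bar marks each median, dashed lines stand at 0.58 on either side of 0, and a grey line marks the median of all genes tested. In JJ012 the medians run from -0.94 for collagen folding to 0.62 for the PERK arm, and in 143B all medians lie between -0.23 and 0.26. By TPM the JJ012 medians of the 2 translocon groups lie above 0.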

How the data were processed

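Poly(A) RNA from the 4 libraries was sequenced as paired ends. The authors deposited 1 table with whole-number counts per gene and library, the exonic length of each gene, and FPKM, which are the counts scaled to exonic length and library total, rounded. The submitters' processing notes list cutadapt 1.9.1, HISAT2 2.2.1, HTSeq 0.6.1, DESeq2 and the build hg38. The annotation release and the strand setting of the counting are not given in the sources used here. The cell line in each column name gave its sample, with the suffix T read as treated. Overlaps between genes came from GENCODE 29, whose gene positions matched those of the table for 41657 of 58254 shared genes but for 8 of the 36 genes described, so the overlap shares are approximate.

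Log2 fold changes were computed from FPKM with a pseudocount of 1, where a gene reached 1 FPKM in 1 or both of the 2 libraries, at a threshold of 0.58, the fold threshold of the study's methods. Its FDR was not used, since a single line leaves no residual degrees of freedom. The average over both lines was tested with edgeR's quasi-likelihood test (line as a block, TMM factors, genes at 1 FPKM in a library, Benjamini-Hochberg adjustment), added after seeing the data. CPM ratios had exact (Clopper-Pearson) 95% intervals. The floor of 3 counts was between 0.156 and 0.189 CPM. Alternatives were 0.1 FPKM as the pseudocount, a filter of 5 FPKM or none, centring on the median gene, TPM, CPM, CPM with TMM factors (edgeR 4.0.16), median-of-ratios size factors (DESeq2 1.42.0), removal of the running median over exonic length (501 genes) and a threshold of 1. TPM centred on the median gene was added after seeing the data. The procedures were tested on simulated data. Python 3.11.15, numpy 2.4.6, scipy 1.17.1, pandas 2.3.3, matplotlib 3.10.9 and R 4.3.3 were used.

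All 36 genes are accounted for. Those given in full are ERN1, ATF6, XBP1, CREB3L1, CREB3L2, HSPA5 and every gene that passed the threshold after melatonin, and of each further list the up to 4 genes of the largest absolute change with at least 5 FPKM. In the further lists EIF2AK3, EIF2S1, ATF4, CHAC1, SEC62, P3H4 and ERO1A were named after their values were seen. The 36 genes and the lists were chosen with earlier results of these data known. C-terminal ER retention signals were planned and not analysed here.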

Additional observations from a re-analysis of the deposited data

Results flagged for a closer look

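For 8 of the 36 genes that passed the threshold in at least 1 line, the log2 ratio of CPM after melatonin lay on 1 side of 0 in JJ012 and on the other side in 143B, with the whole counting interval in each. The share of all genes that meet this rule is not given here, so the 8 are not shown to be particular to the list. The values below are the ratio in 143B less the ratio in JJ012, so that positive values are lower in JJ012. With 1 library per condition the difference between the lines was not tested, and the intervals cover counting error only. CRELD2 had the widest difference, 1.89 (interval 1.58 to 2.19), from a ratio of -1.45 in JJ012 and of 0.43 in 143B. SDF2L1 had 1.28, SIL1 1.22, EDEM2 1.02, CALR 1.01, MANF 0.90 and HSP90B1 0.78. For MANF the value past the threshold was the rise in 143B, and for the other 6 of these genes it was the fall in JJ012. The JJ012 value of MANF turned above 0 by TPM (0.11) and with the trend over gene length removed (0.21). EDEM1 went the other way, at -0.97, with a rise in JJ012 and a ratio of -0.21 in 143B. In 143B SDF2L1, CRELD2, SIL1 and EDEM2 rested on 99 to 498 counts per library.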

How the results depend on the processing

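The samples carry no replicate numbers to pair. With the line as a block, 0 of the 35 genes passed an adjusted p of 0.05 by edgeR. With 1 library per condition, no replicate could be left out. In JJ012, where 4 of the 35 genes rose, 2 did with a filter of 5 FPKM, 9 by TPM, 2 with the length trend removed and 1 at a threshold of 1. In place of 12 genes that fell there, 4 did by TPM and 2 at a threshold of 1, and the median of the 35 genes was 0.085 by TPM. By TPM 33% of all genes tested in JJ012 rose and 19.9% fell, and 62.4% of all calls were rises, against 51.4% with FPKM. In 143B, 0 genes rose at a threshold of 1. Between the controls, 7 genes were higher in 143B when centred, with TMM factors or with size factors, and 8 by TPM, in place of 4. Of all genes tested, 33.4% to 36.5% were higher in these settings, in place of 27.4%. The log2 fold change of MANF between the controls was 0.068 with the length trend removed, in place of -0.80. The median of the 35 genes was 0.05 with a filter of 5 FPKM in 143B, in place of 0.14, and between the controls -0.17 by TPM, -0.21 when centred or with TMM factors and -0.27 with size factors, in place of -0.49. In JJ012 it was -0.34 with the length trend removed and -0.11 with TMM factors, in place of -0.18. No setting but TPM in JJ012 turned the direction of these medians.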
